A study of Homo sapiens with 8 samples.

Results

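HCT-116 cells given 5-fluorouracil (5-FU) alone were set directly against HCT-116 cells given 3-MB-PP1 alone, across all genes. HCT-116 is an established human colorectal cancer cell line. The comparison used 4 of the 8 libraries of the series, chosen by their titles: 2 libraries of 40 µM 5-FU for 12 h and then DMSO for 4 h, and 2 libraries of DMSO for 12 h and then 2.5 µM 3-MB-PP1 for 4 h. The other 4 libraries entered the same model: 2 of 5-FU for 12 h and then 3-MB-PP1 for 4 h, and 2 of DMSO for both periods, called vehicle here. In every group the cells were washed with PBS between the periods. The series concerns activation of the p53 program and sensitivity to Cdk7 inhibitors, and the kinase allele of the cells is not given in the labels. The agent, the length of exposure and the wash after it differ together between the groups compared, so their parts in a difference cannot be told apart.

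5-FU is an antimetabolite whose products inhibit thymidylate synthase and enter RNA and DNA, and the p53 protein that such damage stabilises switches on genes for cell cycle arrest, cell death and repair. 3-MB-PP1 is a bulky inhibitor of kinases engineered to accept it. CDK7 is the kinase of the general transcription factor TFIIH, where it phosphorylates RNA polymerase II near promoters, and it also activates the cell cycle CDKs.

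Total RNA depleted of rRNA was sequenced from a single end, and each deposited table gave a read count per transcript. Gene counts per library came to 14945088 and 16559623 after 5-FU alone, 49921053 and 10458379 after 3-MB-PP1 alone, and 12452332 to 13296062 in the other groups. The first 3-MB-PP1 library was thus 4.77 times as deep as its replicate. Of the epithelial markers, KRT8 stood at 2213 and 2238 CPM (read counts scaled to the library's size) after 5-FU and 1349 and 1376 CPM after 3-MB-PP1, and EPCAM at 168 and 171 CPM after 5-FU and 217 and 219 CPM after 3-MB-PP1. Of 20 markers of fibroblasts, leukocytes and endothelium, 6 had enough counts to be tested, and the tested ones summed to 58.1 and 60.4 CPM after 5-FU and 50.9 and 48.1 CPM after 3-MB-PP1. The tested ones included COL1A1 and ACTA2, which had counts in every library, so these markers were not all absent. COL1A2, DCN, LUM, CD3D and CDH5 had 0 counts in every library. In bulk RNA, fewer cells with a transcript and less of it per cell cannot be told apart.

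The transcriptomes of the cells differed widely. Of 15511 genes tested, 8366 (53.9%) were called at a Benjamini-Hochberg adjusted p under 0.05 by edgeR's quasi-likelihood test, 4252 higher after 5-FU (27.4%) and 4114 lower (26.5%). Most of these differences were small: the median absolute log2 difference over all genes was 0.293. A called difference over 2-fold was found for 635 genes higher after 5-FU (4.09%) and 861 lower (5.55%), and one over 4-fold for 63 genes higher (0.406%) and 168 lower (1.08%). The groups did not overlap for 8302 of the called genes, while 11489 of all genes (74.1%) had groups that did not overlap. Against vehicle, 6829 genes were called after 5-FU (44%; 21.4% higher and 22.6% lower) and 4413 after 3-MB-PP1 (28.5%; 11.6% higher and 16.9% lower). Without the deep 3-MB-PP1 library 6813 genes were called. Values below are log2 differences of 5-FU minus 3-MB-PP1 with their standard error (SE), unless another unit is named, and each p is such an adjusted p. They are relative to the other genes. With scaling to the ERCC spike-ins the calls fell to 406, of which 115 were higher and 291 lower. Of 123 called genes described in the text 57 lost their call under that scaling, and all 57 kept their direction, with log2 differences shifted by -0.21 to -0.01. The spike-ins made up 2.70% and 3.25% of the 5-FU libraries and 3.84% and 2.18% of the 3-MB-PP1 libraries.

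**Figure D1:**
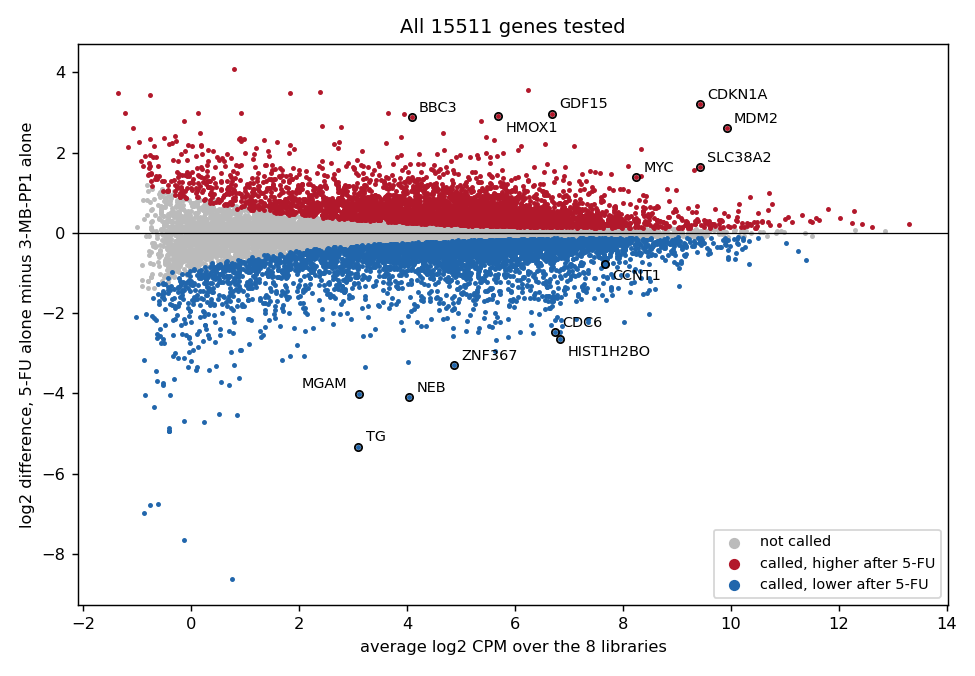
Log2 difference of 5-FU alone minus 3-MB-PP1 alone (vertical axis) against average log2 CPM over the 8 libraries (horizontal axis) for the 15511 genes tested; red points are called higher after 5-FU, blue points lower, grey points not called. CDKN1A and MDM2 are high both in level and in difference, while TG, NEB and MGAM lie far below 0 at low average levels.

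The p53 targets made up the clearest group higher after 5-FU. CDKN1A, the CDK inhibitor p21 that carries p53-dependent arrest, stood at 1604 and 1509 CPM after 5-FU and 172 and 165 CPM after 3-MB-PP1, with 194 and 200 CPM in vehicle. Both 5-FU libraries lay above every other library, and the difference was 3.20 ± 0.05 (SE; adjusted p = 1.13e-24). MDM2, a p53-induced ubiquitin ligase that targets p53 for degradation, stood at 2084 and 2238 CPM after 5-FU, 359 and 352 CPM after 3-MB-PP1 and 454 and 431 CPM in vehicle. Its difference was 2.60 ± 0.05 (adjusted p = 2.89e-23). Both genes were lower after 3-MB-PP1 than in vehicle, by a log2 change of -0.22 for CDKN1A and -0.31 for MDM2.

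Of 19 tested p53 targets of arrest and feedback, 17 were higher after 5-FU, 1 was lower and 1 was not called, with a median of 1.51 against -0.00226 over all genes tested. Their median stood at 1.42 above vehicle after 5-FU and at 0.00 after 3-MB-PP1. PHLDA3, an inhibitor of AKT, was 2.31 ± 0.08 higher (adjusted p = 5.14e-18), and TRIM22 2.33 ± 0.45 higher (adjusted p = 9.16e-05) at levels of about 1 CPM after 5-FU. The lower member was E2F7, at -0.63, which encodes a repressor of E2F targets, and CCNG2, at 0.05, was not called. The genes against the list were picked after their values were seen, as they are in the lists that follow.

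Among p53 targets that act in cell death, 12 of 17 were higher after 5-FU, 1 was lower and 4 were not called, with a median of 0.94. BBC3, which encodes the BH3-only protein PUMA, stood at 40.8 and 37.8 CPM after 5-FU, 5.78 and 3.99 CPM after 3-MB-PP1 and 11.5 and 9.7 CPM in vehicle. The 5-FU libraries were above vehicle and the 3-MB-PP1 libraries below it, and the direct difference was 2.87 ± 0.12 (adjusted p = 2.39e-16). TP53I3, a quinone oxidoreductase, was 2.79 ± 0.08 higher, and the death receptor gene FAS 2.17 ± 0.07 higher, at 115 and 123 CPM after 5-FU and 26.5 and 26.5 CPM after 3-MB-PP1. FAS overlaps ACTA2 on the opposite strand, and whether reads were counted by strand is not given in the sources used here. FDXR, the mitochondrial ferredoxin reductase, was 1.53 ± 0.06 higher.

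PMAIP1, which encodes the BH3-only protein NOXA, did not follow BBC3. It stood at 63.9 and 72.4 CPM after 5-FU, 63 and 59.6 CPM after 3-MB-PP1 and 38.1 and 38.9 CPM in vehicle. Both agents were therefore above vehicle, by 0.83 ± 0.08 after 5-FU (adjusted p = 3.74e-09) and 0.68 ± 0.08 after 3-MB-PP1 (adjusted p = 3.75e-07). The direct difference of 0.14, with a 95% interval of -0.01 to 0.29, was not called (adjusted p = 0.0968). It was called at 0.23 without the first 5-FU library (adjusted p = 0.0279) and at 0.19 with the deep library thinned (adjusted p = 0.0388), and over all 17 alternatives its adjusted p ran from 0.0279 to 1.

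The decoy receptor gene TNFRSF10D was nearly equal, with 208 and 215 CPM after 5-FU, 207 and 207 CPM after 3-MB-PP1 and 94.2 and 95.7 CPM in vehicle. Its direct difference was 0.03, with a 95% interval of -0.07 to 0.13. TNFRSF19, a member of the same receptor family, was lower after 5-FU at -1.13 (-0.79 and not called without the first 5-FU library), and TP53AIP1 and BID were not called.

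The p53 targets of repair and metabolism showed the same direction: 29 of 32 were higher, 1 was lower and 2 were not called, with a median of 0.87. GDF15, a secreted stress cytokine of the TGF-beta family, stood at 230 and 206 CPM after 5-FU and 26.7 and 30.5 CPM after 3-MB-PP1, a difference of 2.96 ± 0.07 (adjusted p = 1.41e-20). EPS8L2, an actin regulator, was 2.17 ± 0.06 higher, the lipid transporter gene ABCA12 2.35 ± 0.32 higher and the transcriptional repressor gene PRDM1 2.27 ± 0.20 higher. RRM2B, the p53-induced small subunit of ribonucleotide reductase, was 1.10 higher, while RRM2, the S-phase form, was lower. The lower member was ASTN2, at -0.19 (adjusted p = 0.0477). That call was lost without any of 4 libraries in turn, with values of -0.19 to -0.04, and counts of the longest ASTN2 transcript gave 2.19 (adjusted p = 1.03e-12) in the other direction. With spike-in scaling FDXR, RRM2B, TNFRSF19, E2F7 and ASTN2 were not called, at 1.46, 0.98, -1.24, -0.75 and -0.24. CDKN1A, MDM2, BBC3, TP53I3, FAS, GDF15, PHLDA3, TRIM22, EPS8L2, ABCA12 and PRDM1 were called under that scaling.

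Outside the lists, large differences in this direction included surface and signalling proteins. PLXNB3, a semaphorin receptor, was 2.98 ± 0.13 higher, PVRL4, the adhesion molecule nectin-4, 2.95 ± 0.12 higher, GJB5, a connexin, 2.66 ± 0.17 higher, and INPP5D, the inositol phosphatase SHIP1, 2.63 ± 0.15 higher. PVRL4 had 33.2 and 31.4 CPM after 5-FU, 4.08 and 4.47 CPM after 3-MB-PP1 and 5.83 and 4.54 CPM in vehicle, so the 3-MB-PP1 and vehicle libraries lay close together. All 4 were also called with spike-in scaling.

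**Figure D2:**
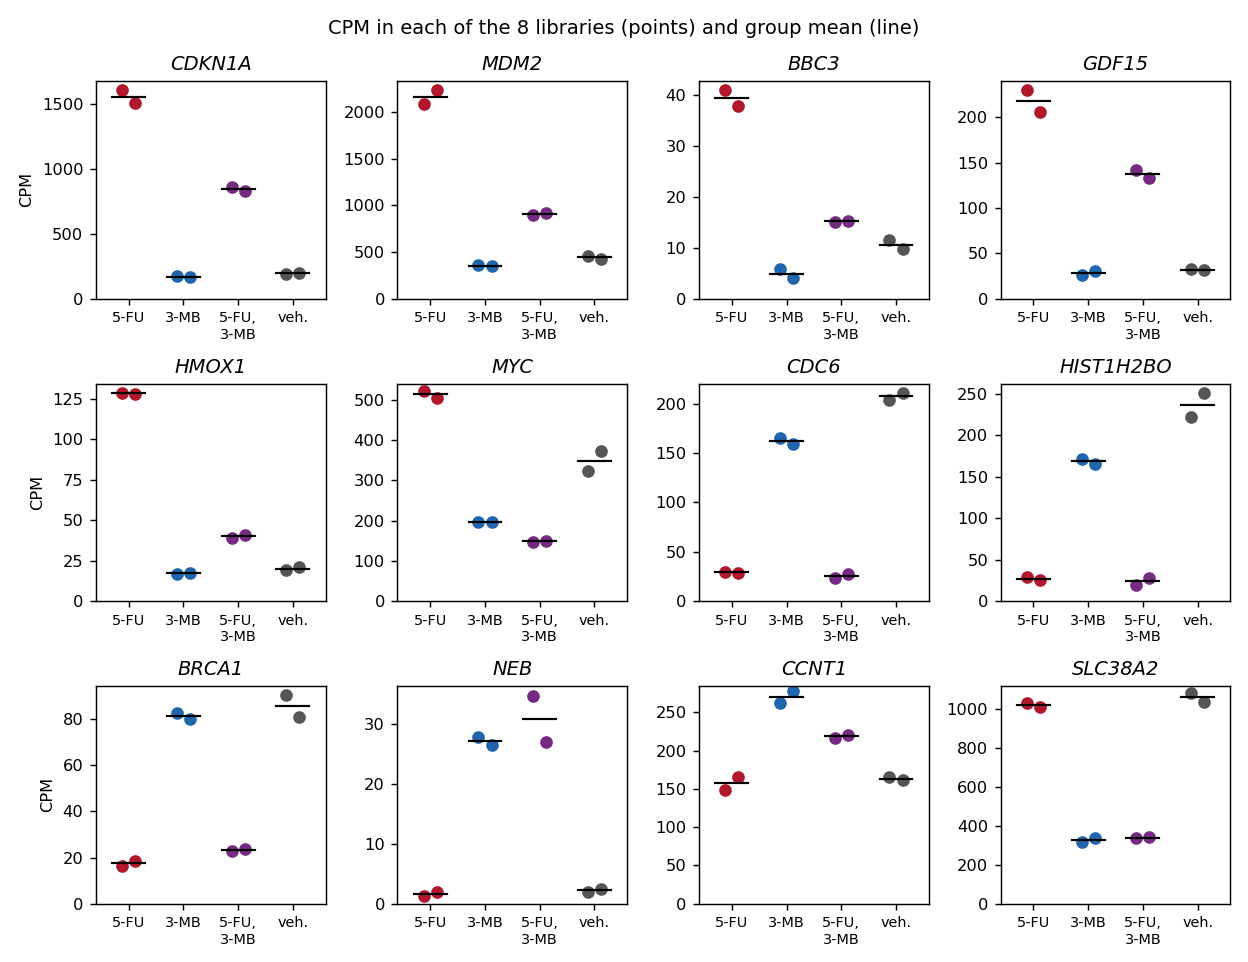
CPM of 12 genes in each of the 8 libraries (points) with the mean of each group (line), each panel on its own linear axis from 0; the groups from left to right are 5-FU alone, 3-MB-PP1 alone, 5-FU then 3-MB-PP1, and vehicle. CDKN1A, MDM2 and BBC3 are highest after 5-FU alone, NEB is high in both groups given 3-MB-PP1, and SLC38A2 is near 1000 CPM in the groups without it and near 330 CPM in the groups with it.

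The 4 lists with the lowest medians after 5-FU were those of histone, G1/S, homologous recombination and mitotic genes. The replication-dependent histone genes are driven at the start of S phase, E2F factors drive the G1/S genes, and a later set of mitotic genes is repressed through CHR and CCAAT elements when p21 stops the CDKs. Promoters of 4 genes are shown as examples of these elements. They come from RefSeq on GRCh38.p14, read 5′ to 3′ on the gene's strand from 200 bases before the start to 30 bases from it. Capitals mark every match, in either orientation, of these elements: the CCAAT box in all 4 genes, the E2F core in HIST1H2BO, E2F1 and CDC6, the octamer in HIST1H2BO and the CHR in HMMR.
HIST1H2BO, chr6:27893225-27893454, plus strand: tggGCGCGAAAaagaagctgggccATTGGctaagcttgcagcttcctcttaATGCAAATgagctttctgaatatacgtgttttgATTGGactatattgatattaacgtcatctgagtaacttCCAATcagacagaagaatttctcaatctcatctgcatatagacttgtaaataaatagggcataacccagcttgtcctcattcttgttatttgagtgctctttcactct
E2F1, chr20:33686356-33686585, minus strand: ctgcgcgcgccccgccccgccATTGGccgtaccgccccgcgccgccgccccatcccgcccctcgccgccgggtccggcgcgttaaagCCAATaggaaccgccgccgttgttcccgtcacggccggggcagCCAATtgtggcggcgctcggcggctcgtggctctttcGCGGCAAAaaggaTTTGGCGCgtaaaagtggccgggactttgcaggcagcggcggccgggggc
CDC6, chr17:40287679-40287908, plus strand: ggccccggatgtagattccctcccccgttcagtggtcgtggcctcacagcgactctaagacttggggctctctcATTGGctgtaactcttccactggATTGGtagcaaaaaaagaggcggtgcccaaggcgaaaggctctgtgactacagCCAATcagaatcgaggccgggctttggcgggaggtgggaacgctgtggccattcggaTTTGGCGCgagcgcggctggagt
HMMR, chr5:163460432-163460661, plus strand: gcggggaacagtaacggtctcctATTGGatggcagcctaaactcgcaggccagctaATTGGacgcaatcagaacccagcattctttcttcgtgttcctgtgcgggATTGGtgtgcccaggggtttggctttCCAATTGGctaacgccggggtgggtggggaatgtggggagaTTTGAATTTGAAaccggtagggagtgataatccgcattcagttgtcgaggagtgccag

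The 4 genes shown were all lower after 5-FU. HIST1H2BO, which encodes a histone H2B, stood at 28.8 and 25.1 CPM after 5-FU, 172 and 166 CPM after 3-MB-PP1 and 222 and 251 CPM in vehicle, a difference of -2.65 ± 0.09 (adjusted p = 9e-18). E2F1, an activator of G1/S genes and itself one of them, stood at 5.79 and 5.52 CPM after 5-FU, 25.9 and 26.9 CPM after 3-MB-PP1 and 33.4 and 32.9 CPM in vehicle, a difference of -2.22 ± 0.12 (adjusted p = 2.75e-14). CDC6, which loads the replicative helicase, stood at 30 and 28.5 CPM after 5-FU, 165 and 159 CPM after 3-MB-PP1 and 204 and 211 CPM in vehicle, a difference of -2.48 ± 0.07 (adjusted p = 1.83e-19). HMMR, a microtubule protein of the mitotic spindle, stood at 35.4 and 38.8 CPM after 5-FU, 138 and 138 CPM after 3-MB-PP1 and 142 and 143 CPM in vehicle, a difference of -1.89 ± 0.06 (adjusted p = 5.77e-18). In none of the 4 did the groups overlap, which held for 74.1% of all genes, and each was also called with spike-in scaling.

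All 41 genes of G1/S and DNA replication were lower after 5-FU, from -2.58 for CCNE2 to -0.38 for PCNA, with a median of -1.55. The median stood at -1.84 relative to vehicle after 5-FU and at -0.25 after 3-MB-PP1. These comparisons share the vehicle libraries. CCNE2, the cyclin E2 of the G1/S switch, stood at 6.33 and 6.8 CPM after 5-FU and 37.5 and 42.6 CPM after 3-MB-PP1. The primase subunit gene PRIM1 stood at -2.45 ± 0.10, and ORC1, the largest subunit of the origin recognition complex, stood at -2.32 ± 0.08. Outside the list, ZNF367, a zinc finger transcription factor, stood at 4.06 and 4.55 CPM after 5-FU and 42.4 and 43.2 CPM after 3-MB-PP1, a difference of -3.30 ± 0.11 (adjusted p = 2.23e-18). ESCO2, the acetyltransferase that fixes sister chromatid cohesion in S phase, stood at -2.94 ± 0.09, the histone chaperone gene ASF1B at -2.66 ± 0.09, and DTL, a substrate receptor of the CUL4 ubiquitin ligase, at -2.61 ± 0.08. CCNE2 overlaps INTS8 and DTL overlaps INTS7, each on the opposite strand.

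All 34 mitotic genes were lower after 5-FU as well, from -1.89 for HMMR to -0.28 for UBE2C, with a median of -1.12. CDC25C, the phosphatase that activates CDK1, stood at -1.80 ± 0.14, ASPM, a spindle pole protein, at -1.74 ± 0.07, and the spindle motor gene KIF11 at -1.61 ± 0.06. KIF11 had 46.7 and 48.9 CPM after 5-FU, 147 and 144 CPM after 3-MB-PP1 and 175 and 174 CPM in vehicle.

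Of 56 listed histone genes 45 passed the filter on low counts, and all 45 were lower after 5-FU, with a median of -1.68. Their median was -2.54 relative to vehicle after 5-FU and -0.74 after 3-MB-PP1, so both groups lay below vehicle. HIST1H3J, which encodes a histone H3, showed this order at 19.8 and 15.6 CPM after 5-FU, 97.8 and 102 CPM after 3-MB-PP1 and 185 and 200 CPM in vehicle. Histone genes are near-identical copies, so the split of reads between members is uncertain. The largest fitted difference, of HIST1H3C, rests on 0 and 5 counts after 5-FU.

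Genes of homologous recombination and the Fanconi pathway were lower for 26 of 27 members, with a median of -1.23. BRCA1 stood at 16.3 and 18.7 CPM after 5-FU and 82.8 and 79.9 CPM after 3-MB-PP1, a difference of -2.22 ± 0.08 (adjusted p = 2.21e-17). C16orf75, the RMI2 subunit of the BLM complex, stood at -2.44 ± 0.25, CLSPN, the claspin that passes the ATR signal to CHEK1, at -2.03 ± 0.07, and the nuclease gene EXO1 had 16 and 17.2 CPM after 5-FU and 67.7 and 64.4 CPM after 3-MB-PP1. ATM, the kinase that senses double-strand breaks, was not called at -0.05.

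The genes of thymidylate and deoxynucleotide synthesis divided: 12 of 23 were lower after 5-FU, 5 were higher and 6 were not called. UNG, which removes uracil from DNA, stood at 35.8 and 33.3 CPM after 5-FU and 111 and 102 CPM after 3-MB-PP1, a difference of -1.64 ± 0.07. RRM2 stood at -1.47 ± 0.05 and DUT, the dUTPase, at -1.29 ± 0.07. TYMS, the thymidylate synthase that 5-FU targets, stood at 100 and 102 CPM after 5-FU, 120 and 179 CPM after 3-MB-PP1 and 119 and 128 CPM in vehicle. The 3-MB-PP1 libraries disagreed, and the difference of -0.53 ± 0.10 became -0.83 without the first of them and -0.24 without the second. The higher members were UPP1, DCTD, TYMP, CTPS and UCK2, which act in pyrimidine salvage and interconversion and in CTP synthesis, at 0.15 to 0.67. Calls of 3 of these were lost when a library was left out: UPP1 stood at 0.34 without the first 5-FU library and 0.63 without the first 3-MB-PP1 library, CTPS at 0.11 without the first 3-MB-PP1 library and 0.17 without the second 5-FU library, and UCK2 at 0.14 to 0.16 without any of 3 libraries. With spike-in scaling RRM2, DUT and TYMS were not called, at -1.60, -1.41 and -0.74. None of the 5 higher members was called under that scaling, where they stood at 0.05 to 0.66.

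The promoter elements were counted over the lists for which RefSeq gave at least 80% of promoters, each of 300 bases, on both strands. The E2F core (TTTCCCGC, TTTGGCGC, TTTCGCGC or TTTGCCGC) was in 19 of 35 G1/S promoters, 54.3%, against 3.33% of all 27305 promoters in the table. It was also in 13 of 41 histone promoters (31.7%) and 6 of 23 recombination promoters (26.1%). The CHR (TTTGAA) was in 18 of 28 mitotic promoters, 64.3%, and in 14 of 41 histone promoters, 34.1%, against 15.4% of all. The octamer (ATTTGCAT) was in 20 of 41 histone promoters, 48.8%, against 1.8% of all, and the CCAAT box in 35 of these, 85.4%, against 35.7% of all. The CCAAT box was as common in other lists, in 16 of 18 promoters of the unfolded protein response (88.9%) and 22 of 28 mitotic promoters (78.6%), and it was in 19 of 35 G1/S promoters (54.3%). Of 954 matches of the E2F core over all promoters, 117 shared bases with a GC box (GGGCGG). The 27305 promoters include those of genes not tested here, and 11835 of the 15511 genes tested had a promoter among them. The shares of all promoters are thus not those of the genes tested. These shares describe sequence and not binding.

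**Figure D3:**
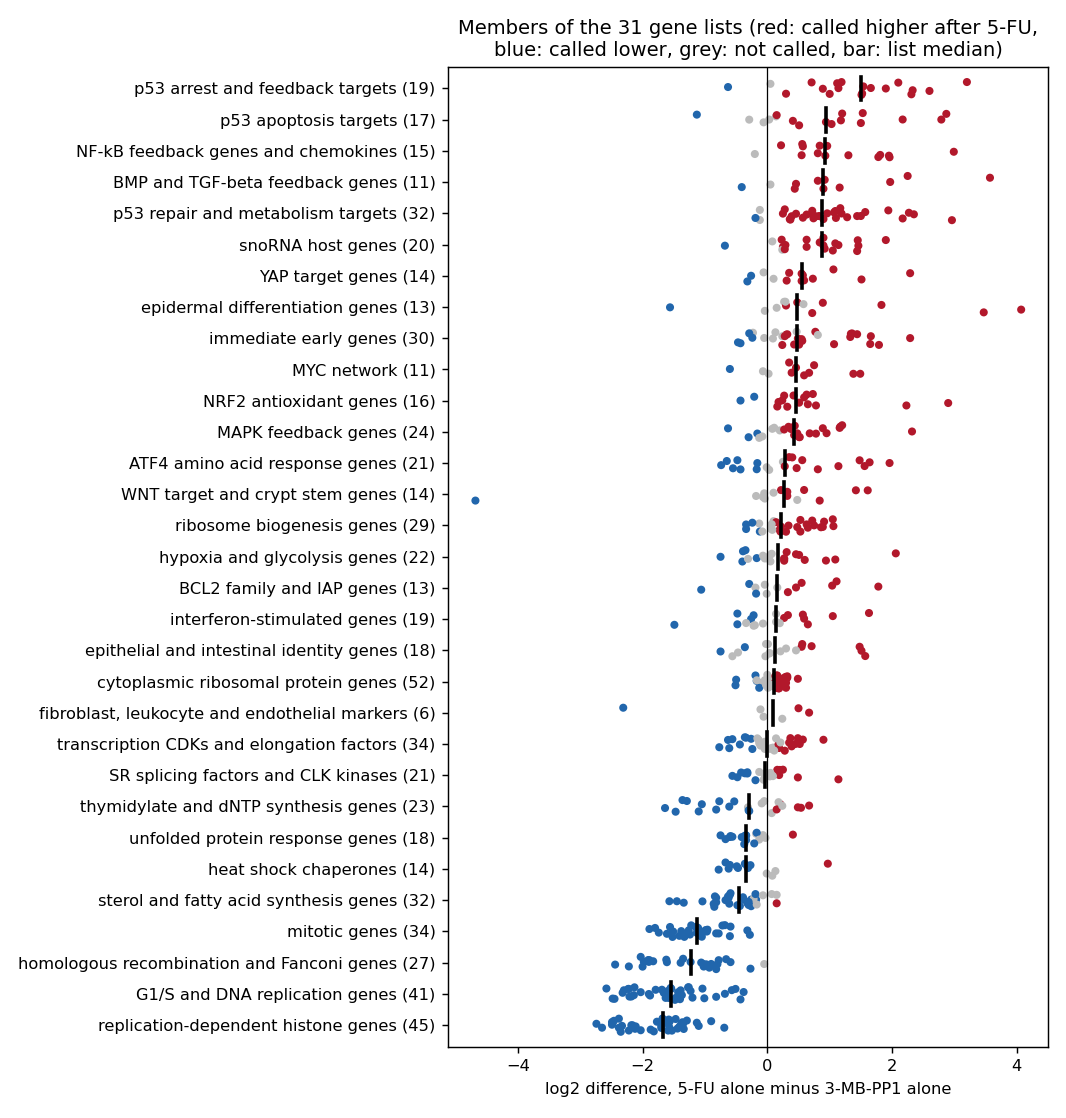
Log2 difference of 5-FU alone minus 3-MB-PP1 alone (horizontal axis) for each tested member of the 31 gene lists (rows, number of members in brackets); red points are called higher after 5-FU, blue lower, grey not called, and the bar is the list median. The 3 p53 lists are near the top, with medians of 0.87 to 1.51. The NF-kB (0.93), BMP and TGF-beta (0.90) and snoRNA host (0.87) lists lie there too. The histone, G1/S, recombination and mitotic lists are at the bottom, with medians of -1.68 to -1.12. The point at the far left, LGR5, is a fitted value for a gene with 1 read after 5-FU.

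Several groups of inducible genes were higher after 5-FU, and some of them lay below vehicle after 3-MB-PP1. Of 15 NF-kB feedback genes and chemokines, 14 were higher and 1, TRAF1, was not called, with a median of 0.93. The median stood at 0.74 above vehicle after 5-FU and at -0.41 after 3-MB-PP1. ICAM1, an adhesion molecule for leukocytes, had 33.4 and 35.4 CPM after 5-FU, 9.04 and 8.46 CPM after 3-MB-PP1 and 17.1 and 16.6 CPM in vehicle, a difference of 1.95 ± 0.11 (adjusted p = 4.66e-14). BIRC3, an inhibitor of apoptosis that NF-kB induces, was 1.78 ± 0.17 higher, CSF1, the macrophage growth factor, 1.96 ± 0.25 higher, and CXCL1, a chemokine, 1.81 ± 0.38 higher at under 2 CPM in every library. The chemokine IL8 had 1.93 and 3.34 CPM after 5-FU and 0.316 and 0.38 CPM after 3-MB-PP1, a difference of 2.99 ± 0.40. All 5 were also called with spike-in scaling.

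MYC, a growth-promoting transcription factor with a short-lived mRNA, stood at 522 and 505 CPM after 5-FU, 197 and 198 CPM after 3-MB-PP1 and 324 and 374 CPM in vehicle. It was 0.56 ± 0.06 above vehicle after 5-FU and -0.82 ± 0.06 from it after 3-MB-PP1, and the direct difference was 1.38 ± 0.06 (adjusted p = 1.52e-16). Cells given 5-FU and then 3-MB-PP1 had 148 and 150 CPM. Of 11 genes of the MYC network 8 were higher, 1 was lower and 2 were not called. The higher ones included MXD4, an antagonist of MYC, at 1.49 ± 0.10, and MAX, its partner, at 0.67 ± 0.08. MYCL1 was the lower member, at -0.60, and was not called without the first 5-FU library (-0.39) or the first 3-MB-PP1 library (-0.65). MCL1, a BCL2 family survival gene with a short-lived mRNA, had 278 and 278 CPM after 5-FU, 335 and 347 CPM after 3-MB-PP1 and 254 and 274 CPM in vehicle, a difference of -0.29 ± 0.05 (adjusted p = 1.79e-05). None of MYC, MXD4, MAX, MYCL1 and MCL1 was called with spike-in scaling, where their differences were 1.28, 1.41, 0.57, -0.70 and -0.40. MYCL1 was also not called with DESeq2 (-0.62).

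Of 30 immediate early genes 19 were higher after 5-FU, 4 were lower and 7 were not called, with a median of 0.48. JUN, a subunit of AP-1, stood at 30.8 and 29.2 CPM after 5-FU and 9.71 and 9.23 CPM after 3-MB-PP1, 1.65 ± 0.10 apart. ATF3, a stress-induced repressor, was 1.79 ± 0.09 higher, CTGF, a matrix protein, 2.29 ± 0.26 higher, and IER3 1.66 ± 0.07 higher, which of these 4 was the one not called with spike-in scaling (1.59). FOS and EGR1, the classic first responders to mitogens, behaved otherwise. EGR1 had 73.4 and 72.2 CPM after 5-FU and 75.1 and 76 CPM after 3-MB-PP1, and its difference of -0.05, with a 95% interval of -0.28 to 0.18, was not called (adjusted p = 0.723). FOS had 6.33 and 6.01 CPM after 5-FU and 7.69 and 9.8 CPM after 3-MB-PP1, a difference of -0.43 ± 0.15 (adjusted p = 0.0199). The FOS call was lost with DESeq2 (adjusted p = 0.0861), with spike-in scaling and without any of 3 libraries in turn, and its value was -0.67 without the first 3-MB-PP1 library. Over the 17 alternatives its adjusted p ran from 0.00398 to 0.936.

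Of 24 genes listed for MAPK feedback, which include growth factor ligands and receptors beside inhibitors, 16 were higher, 3 were lower and 5 were not called. SPRY1, an inhibitor of receptor tyrosine kinase signalling, had 4.8 and 5.58 CPM after 5-FU, 0.888 and 1.62 CPM after 3-MB-PP1 and 2.13 and 2.08 CPM in vehicle, a difference of 2.32 ± 0.25 (adjusted p = 1.61e-08). The lower members were ETV5, SPRY4 and DUSP6, at -0.63, -0.30 and -0.16, and DUSP6 was not called without the first 3-MB-PP1 library (-0.10) or either 5-FU library (-0.14 and -0.18). DUSP6 was also not called with DESeq2 or limma. With spike-in scaling none of these 3 was called, at -0.73, -0.39 and -0.24. Of 11 BMP and TGF-beta feedback genes 9 were higher after 5-FU, 1 was lower and 1 was not called. SMAD7, an inhibitory SMAD, was 1.97 ± 0.30 higher at under 3 CPM.

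Of 16 NRF2 antioxidant genes 14 were higher and 2, PGD and TALDO1 of the pentose phosphate pathway, were lower. HMOX1, the heme oxygenase, had 129 and 128 CPM after 5-FU, 17 and 17.6 CPM after 3-MB-PP1 and 19.4 and 20.9 CPM in vehicle, a difference of 2.90 ± 0.07 (adjusted p = 1.17e-20). OSGIN1, an oxidative stress growth inhibitor, was 2.23 ± 0.12 higher, and the sulfiredoxin gene SRXN1 0.73 ± 0.06 higher, though not called with spike-in scaling (0.62). The rest of the list lay between -0.43 and 0.78. With spike-in scaling PGD and TALDO1 were not called, at -0.52 and -0.30.

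Chaperones and lipid synthesis went the other way. Of 18 unfolded protein response genes 13 were lower after 5-FU and 1, ERN1, was higher, and of 14 heat shock chaperones 10 were lower and 1, HSPA4L, was higher, both with a median of -0.34. The ERN1 difference of 0.41 was not called without the first 3-MB-PP1 library (0.23). HSPH1, an HSP110 chaperone, had 251 and 264 CPM after 5-FU, 435 and 448 CPM after 3-MB-PP1 and 426 and 401 CPM in vehicle, a difference of -0.78 ± 0.05. Of 32 sterol and fatty acid synthesis genes 26 were lower, 1, FASN, was higher at 0.15, and 5 were not called, with a median of -0.46. FASN was not called without the first 5-FU library (0.06) or the first 3-MB-PP1 library (0.14). INSIG1, the sterol sensor that retains SREBP in the endoplasmic reticulum, had 9.99 and 9.23 CPM after 5-FU, 27.3 and 30.5 CPM after 3-MB-PP1 and 73.5 and 71.8 CPM in vehicle. Both groups were thus below vehicle, and 5-FU was the lower, by a log2 difference of -1.57 ± 0.10 (adjusted p = 1.49e-12). SCD, the stearoyl-CoA desaturase, stood at -1.34 ± 0.05 and the isomerase gene IDI1 at -1.45 ± 0.07. With spike-in scaling HSPH1, HSPA4L, ERN1, SCD, IDI1 and FASN were not called, at -0.89, 0.86, 0.25, -1.44, -1.57 and 0.05. ERN1 was also not called with DESeq2 (0.38).

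SLC38A2 and, by their median, the snoRNA host genes lay below vehicle after 3-MB-PP1 and near vehicle after 5-FU. SLC38A2, a neutral amino acid transporter, had 1032 and 1013 CPM after 5-FU, 320 and 339 CPM after 3-MB-PP1 and 1082 and 1040 CPM in vehicle. Its change from vehicle was -0.05 ± 0.04 after 5-FU (adjusted p = 0.356) and -1.69 ± 0.05 after 3-MB-PP1, and the direct difference was 1.64 ± 0.05 (adjusted p = 1.83e-19). The snoRNA host genes, spliced RNAs whose introns hold small nucleolar RNAs, were higher after 5-FU for 17 of 20 members, with a median of 0.87. Their median stood at 0.15 from vehicle after 5-FU and at -0.57 after 3-MB-PP1. Against vehicle 8 members rose and 2 fell after 5-FU, while 15 fell after 3-MB-PP1.

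SNHG12 had 46.2 and 46.3 CPM after 5-FU, 12.1 and 13 CPM after 3-MB-PP1 and 52.4 and 51.7 CPM in vehicle, a difference of 1.90 ± 0.08 (adjusted p = 4.86e-16). GAS5 had 229 and 224 CPM after 5-FU, 79.1 and 87.1 CPM after 3-MB-PP1 and 178 and 176 CPM in vehicle, 1.46 ± 0.06 apart, and SNHG3 was 1.44 ± 0.08 higher. GAS5 was thus also above vehicle after 5-FU, by 0.36 ± 0.06. SNHG10 was the lower member, at -0.68. These genes hold annotated snoRNAs or overlap a protein-coding gene, so their reads can include those of the other gene. The 160 snoRNAs and small Cajal body RNAs tested, which guide modification of rRNA and snRNA, showed 89 higher, 4 lower and 67 not called, with a median of 0.63. Of all genes, 27.4% were higher and 26.5% lower. Among 29 ribosome biogenesis genes 19 were higher and 4 lower, with a median of 0.22, led by RRP12 at 1.06 ± 0.06 and PPAN at 1.05 ± 0.06. From vehicle, RRP12 stood at 0.78 after 5-FU and -0.28 after 3-MB-PP1, and PPAN at 0.37 and -0.69 in the same order. The 52 cytoplasmic ribosomal protein genes moved little, 25 higher, 5 lower and 22 not called, within -0.51 to 0.49. Their share called, 57.7%, was near the 53.9% of all genes. With spike-in scaling SLC38A2, GAS5, SNHG3, SNHG10, RRP12 and PPAN were not called, at 1.52, 1.33, 1.28, -0.76, 0.97 and 0.95. SNHG12 was called under that scaling.

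The transcription machinery was split about evenly, with 11 of 34 CDKs, cyclins and elongation factors higher, 9 lower and 14 not called, and a median of 0.00. The share called, 58.8%, was near the 53.9% of all genes. CDK7 had 82.7 and 89.4 CPM after 5-FU, 60.6 and 62.5 CPM after 3-MB-PP1 and 80.6 and 83.9 CPM in vehicle, a difference of 0.49 ± 0.06 (adjusted p = 4.15e-07). Its change was 0.07 from vehicle after 5-FU (adjusted p = 0.439) and -0.42 after 3-MB-PP1 (adjusted p = 1.91e-05). CCNH and MNAT1, the cyclin and assembly factor bound to CDK7, were not called, with 95% intervals of -0.20 to 0.14 and -0.14 to 0.22.

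Some partners of CDK9, the kinase of P-TEFb that releases paused polymerase, moved in opposite ways. CCNT1, its cyclin T1, had 149 and 166 CPM after 5-FU, 262 and 278 CPM after 3-MB-PP1 and 166 and 161 CPM in vehicle, a difference of -0.77 ± 0.06 (adjusted p = 1.28e-11), and CCNT2 stood at -0.61 ± 0.06. HEXIM1, which holds P-TEFb inactive, had 74.3 and 74.8 CPM after 5-FU, 36.7 and 46.1 CPM after 3-MB-PP1 and 58.7 and 57.2 CPM in vehicle, a difference of 0.90 ± 0.08 (adjusted p = 3.57e-10). In the same list, CDK9 itself, HEXIM2 and LARP7 were not called, at 0.09, -0.14 and -0.16, and MEPCE was higher, at 0.52. None of CCNT1, CCNT2, HEXIM1 and CDK7 was called with spike-in scaling, where their differences were -0.90, -0.73, 0.71 and 0.38. ACTB and GAPDH, often used as references, were themselves higher after 5-FU, by 0.36 ± 0.04 and 0.54 ± 0.04. With spike-in scaling they stood at 0.27 and 0.45 and were not called.

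Some of the largest differences were of genes low or nearly silent in vehicle that were higher after 3-MB-PP1. NEB, the giant muscle protein nebulin, had 1.27 and 1.88 CPM after 5-FU, 27.9 and 26.5 CPM after 3-MB-PP1 and 1.97 and 2.46 CPM in vehicle, a difference of -4.10 ± 0.17 (adjusted p = 3.31e-16). TG, the thyroid hormone precursor thyroglobulin, had 4 and 6 reads after 5-FU, 645 and 145 reads after 3-MB-PP1 and 1 and 4 reads in vehicle, a difference of -5.33 ± 0.25 (adjusted p = 1.96e-15). MGAM, an intestinal maltase, had 1.2 and 0.668 CPM after 5-FU, 15.7 and 13.3 CPM after 3-MB-PP1 and 0.472 and 0.231 CPM in vehicle. Cells given 5-FU and then 3-MB-PP1 had 14.4 and 14.3 CPM of MGAM. TG overlaps SLA on the opposite strand.

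VWA3A stood at -3.07 ± 0.25, with 0.733 and 0.971 CPM after 5-FU, 7.97 and 5.52 CPM after 3-MB-PP1 and 0.157 and 0.231 CPM in vehicle. The axonemal dynein gene DNAH10 stood at -2.54 ± 0.15 and was not near silent in vehicle. It had 2.66 and 3.22 CPM after 5-FU, 17.1 and 17.2 CPM after 3-MB-PP1 and 4.65 and 4.47 CPM in vehicle. KDR, the endothelial VEGF receptor and one of the markers of other cells, had 0.999 and 0.971 CPM after 5-FU, 5.05 and 4.57 CPM after 3-MB-PP1 and 1.02 and 1.39 CPM in vehicle, while the endothelial marker CDH5 was at 0 in every library. LGR5, a marker of intestinal crypt stem cells, had 0 and 1 reads after 5-FU, 49 and 11 after 3-MB-PP1 and 0 and 1 in vehicle. Scaled by depth, its count after 3-MB-PP1 was 31.3 times that after 5-FU, with an exact 95% interval of 5.41 to 1257 that covers counting error alone. LGR5 was the lower member of 14 tested WNT target and crypt stem genes, of which 7 were higher after 5-FU and 6 were not called. The higher ones included EPHB3 at 1.61 and SOX9 at 0.84, and the list median was 0.27. The share called, 57.1%, was near the 53.9% of all genes.

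Of the 168 genes over 4-fold lower after 5-FU, 87 (51.8%) were under 1 CPM in vehicle, with a median of 0.822 CPM there, and of the 63 genes over 4-fold higher 25 (39.7%) were, with a median of 2.1 CPM. A gene near 0 in some groups passed the filter on low counts only through the groups where it was higher, so these shares describe the sets and test nothing. For the 168, the median change from vehicle was -1.37 after 5-FU and 1.64 after 3-MB-PP1. Genes over 2-fold higher after 5-FU spanned a median of 11.4 kb of the genome, those over 2-fold lower 29.5 kb, and all genes 24.3 kb. Of genes under 5 kb, 8.33% were over 2-fold higher and 5.48% over 2-fold lower, whereas of genes over 100 kb 2.07% were higher and 5.51% lower. Transcript length differed less, with medians of 2423, 2918 and 2897 bases for these sets.

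Relative to vehicle, some genes were called on opposite sides after the 2 agents. CDKN1A, HMOX1, BBC3, MDM2, PHLDA3 and OSGIN1, described above, were above vehicle after 5-FU and below it after 3-MB-PP1, as was RGS16, a brake on G protein signalling. The fall after 3-MB-PP1 was -0.99 for BBC3 (adjusted p = 1.34e-05). It was -0.48 for OSGIN1 (adjusted p = 0.0174), -0.26 for PHLDA3 (adjusted p = 0.036) and -0.23 for HMOX1 (adjusted p = 0.0469). The alternative settings were run on the direct difference only, so calls against vehicle were not checked with them. RGS16 had 13.7 and 13 CPM after 5-FU, 2.98 and 2.47 CPM after 3-MB-PP1 and 7.87 and 5.7 CPM in vehicle, a direct difference of 2.21 ± 0.16 (adjusted p = 1.61e-11). LRP1, a large endocytic receptor, had 29.2 and 29.6 CPM after 5-FU, 5.58 and 5.8 CPM after 3-MB-PP1 and 9.29 and 8.39 CPM in vehicle, 2.38 ± 0.11 apart. In the other direction POLN, a DNA polymerase, had 1.86 and 1.46 CPM after 5-FU, 6.63 and 6.94 CPM after 3-MB-PP1 and 3.7 and 2.7 CPM in vehicle, a direct difference of -2.02 ± 0.20 (adjusted p = 5.88e-09). STOX1, UNC5A, ZNF519 and FBF1 lay likewise, with direct differences of -2.37, -2.13, -1.99 and -1.87.

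Other genes lay on the same side of vehicle after either agent. EPHA2, an ephrin receptor kinase, had 445 and 436 CPM after 5-FU, 342 and 307 CPM after 3-MB-PP1 and 156 and 173 CPM in vehicle. It rose by 1.42 ± 0.06 after 5-FU and by 0.98 ± 0.06 after 3-MB-PP1, and the direct difference was 0.44 ± 0.06 (adjusted p = 2.61e-07). AMOTL2, an angiomotin that binds YAP, had 125 and 128 CPM after 5-FU, 107 and 94.7 CPM after 3-MB-PP1 and 39.3 and 56.7 CPM in vehicle. Its direct difference of 0.31 ± 0.09 (adjusted p = 0.00353) was not called with DESeq2 (adjusted p = 0.168), and over the 17 alternatives its adjusted p ran from 3.43e-06 to 1. MBD5, a methyl-CpG binding domain protein, rose by 1.56 ± 0.14 after 5-FU and 1.41 ± 0.13 after 3-MB-PP1, with a direct 95% interval of -0.07 to 0.36. KLF11, a TGF-beta inducible repressor, fell after each, with a direct 95% interval of -0.29 to 0.51. EPHA2 and AMOTL2 were not called with spike-in scaling, at 0.37 and 0.25.

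**Figure D4:**
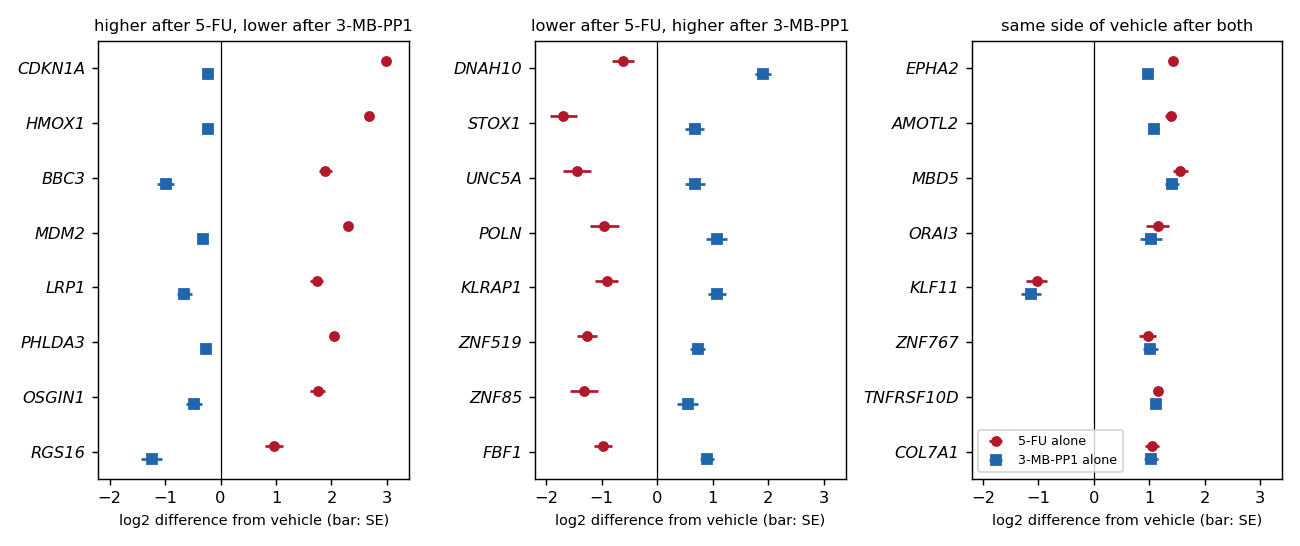
Log2 difference from vehicle (horizontal axis, with SE bars) after 5-FU alone (red circles) and 3-MB-PP1 alone (blue squares), for genes called on opposite sides of vehicle (left and middle) and for genes called on the same side with a direct 95% interval within 1.5-fold (right). CDKN1A stands at 2.98 after 5-FU and -0.22 after 3-MB-PP1, DNAH10 at -0.62 and 1.91, and TNFRSF10D at 1.16 and 1.12 in the same order; the vehicle libraries are shared by all points.

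The cells given both agents in turn place these lists further. The p53 arrest targets had a median over members of 1.40 and 1.43 above the vehicle mean in the 5-FU libraries, -0.03 and 0.03 in the 3-MB-PP1 libraries and 1.25 and 1.17 in the libraries of 5-FU then 3-MB-PP1. The G1/S genes had -1.82 and -1.76 after 5-FU, -0.22 and -0.24 after 3-MB-PP1 and -1.75 and -1.73 after both. The snoRNA host genes had medians above 0 in both 5-FU libraries and below 0 in all 4 libraries given 3-MB-PP1.

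**Figure D5:**
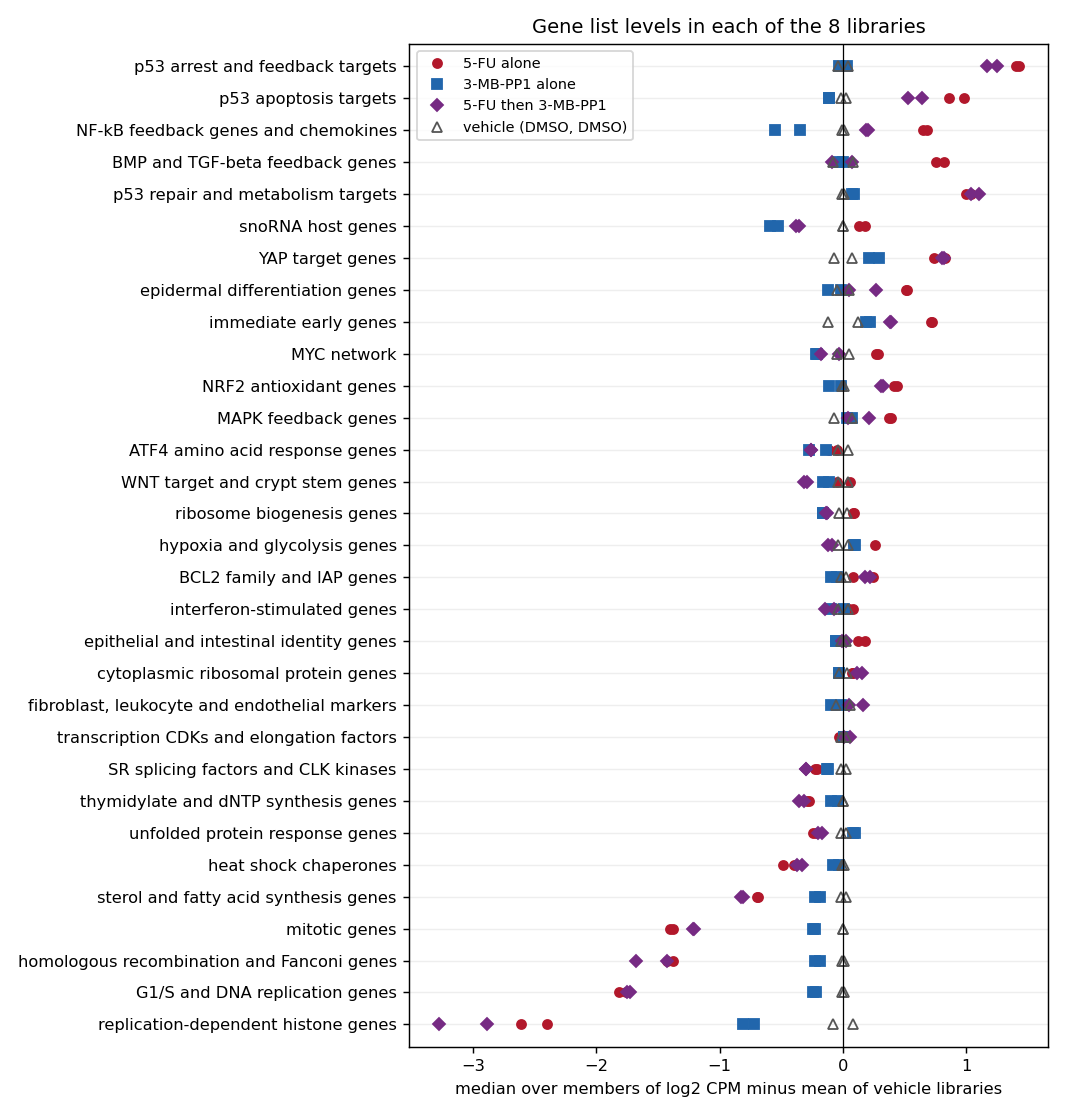
Median over the tested members of each of the 31 lists of log2 CPM minus the mean of the vehicle libraries (horizontal axis), one point per library; circles are 5-FU alone, squares 3-MB-PP1 alone, diamonds 5-FU then 3-MB-PP1, open triangles vehicle. For the p53 arrest targets the 5-FU libraries lie at 1.40 and 1.43 and the 3-MB-PP1 libraries at -0.03 and 0.03, and for the G1/S genes the 5-FU libraries lie at -1.82 and -1.76 and the 3-MB-PP1 libraries at -0.22 and -0.24.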

How the data were processed

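Each deposited table gave whole read counts per RefSeq transcript, which the authors had not normalized. Each also held deposited RPKM, made by the authors from count, transcript length and library total, which was used here for lengths alone. TopHat2 2.0.13 and hg19 are named in the submitters' processing notes; no source used here gives the counting program or its strand setting. Promoters are from RefSeq on GRCh38.p14. Reads of named genes that overlap another gene (among them FAS, TG, CCNE2, DTL, TYMS, BBC3, POLN, PPAN, GAS5, SNHG12 and SNHG3) could not be assigned with certainty.

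Each symbol was represented by its transcript of highest mean count over the 8 libraries, which gave 23544 genes. Of 6260 transcripts without a symbol, 5901 were matched by accession to the RefSeq table. Counts were fitted with edgeR 4.0.16 in R 4.3.3 (filterByExpr, 15511 genes tested, TMM, quasi-likelihood F test, 1 model of 4 groups, 4 residual degrees of freedom, common biological coefficient of variation 0.0423). Two-sided p-values were adjusted over all genes tested (Benjamini-Hochberg), and SEs come from the F statistic. The fit was tested on simulated data. Alternatives were DESeq2 1.42.0, limma 3.58.1, other scalings (RLE, spike-ins), no filter, the 4 libraries alone, a replicate block, the longest transcript, a thinned library and each library left out.

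The contrast, the 31 gene lists and the rules were chosen with earlier results of these data known, so lists carry counts and medians and no test. Genes named were the 12 largest differences each way among called genes of average log2 CPM 2 or more with separate groups, 8 on opposite sides and 8 on the same side of vehicle, up to 4 per list and a few set genes; small, uncharacterised and multiply placed symbols were not ranked, and not all are printed; some are not reported here. Other members are named as exceptions. Replicates are numbered in the titles, nothing says that they were separate cultures, and p-values measure only the spread between these libraries. Correlation of log2 CPM between replicates was 0.993 to 0.994. Intervals of read counts cover counting error alone.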

Additional observations from a re-analysis of the deposited data

How the results depend on the processing

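Scaling to the ERCC spike-ins left 406 genes called, 115 higher and 291 lower after 5-FU, and all of these were over 2-fold (115 and 291). It shifted the median of all genes to -0.0779, and 57 of 123 called genes described in the text lost their call, all in the same direction as before and with differences shifted by -0.21 to -0.01. The cause was not tested; the spike-in shares of replicates differed in every group. Under the other 8 alternatives that kept both libraries of each group compared, the count of called genes ranged from 6482 with DESeq2 to 8557 without a filter on low counts. Leaving out each of the 8 libraries in turn gave 6813 to 8370 genes called, 3416 to 4242 higher and 3397 to 4128 lower, 577 to 665 over 2-fold higher and 827 to 916 over 2-fold lower. Where a group was left with 1 library, it was assumed to vary like the others.

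With the replicate number as a block 8393 genes were called, 4261 higher and 4132 lower. Same-numbered libraries of the groups compared deviated together with a correlation of 0.0564 across genes, and over all pairs of groups the values ran from -0.0813 to 0.102. These values show little shared deviation, and they cannot say whether same-numbered libraries were prepared together.

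Of the 123 called genes described, ASTN2 changed direction, to 2.19 with the longest transcript (range over libraries left out -0.28 to -0.04). Of those not called, CCNG2 changed sign with DESeq2 (-0.06), spike-in scaling (-0.21), the deepest library thinned (-0.11) or limma (-0.08) and without the first 3-MB-PP1 library or the first 5-FU library (-0.15; range -0.39 to 0.25), BID without the second library of either group (range -0.19 to 0.06), ATM without the first 5-FU library (range -0.12 to 0.03), CDH1 with spike-in scaling (-0.02) or without the first 5-FU library (range -0.01 to 0.09), CCNH without the first 3-MB-PP1 library (0.08) or the first 5-FU library (0.10; range over libraries left out -0.18 to 0.10), MNAT1 with the deepest library thinned (-0.00) or without the second library of 3-MB-PP1 (-0.06) or of 5-FU (-0.05; range -0.06 to 0.24), KLF11 without the first 5-FU library (-0.09; range -0.09 to 0.30) and TNFRSF10D with spike-in scaling (-0.07). The median of the interferon list became -0.03 with the deepest library thinned, against 0.14. Genes at about 1 CPM rest on few reads in all but the deepest library.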

Other observations

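Several lists hold further differences that were called. Of 14 YAP target genes 10 were higher after 5-FU, 2 were lower and 2 were not called. The higher ones were led by CTGF and by F3, the tissue factor, which had 65.1 and 77.3 CPM after 5-FU, 25.7 and 23.5 CPM after 3-MB-PP1 and 20.4 and 29.3 CPM in vehicle. Of 18 epithelial and intestinal genes 6 were higher, 2 were lower and 10 were not called, so the share called was below the 53.9% of all genes. The higher ones included KRT19 at 1109 and 1037 CPM after 5-FU and 366 and 358 CPM after 3-MB-PP1, and CLDN4, a tight junction claudin, at 43.3 and 41.3 CPM after 5-FU and 14.3 and 17.3 CPM after 3-MB-PP1. CDH1, the E-cadherin, was not called at 0.04. DKK1, a secreted WNT inhibitor, had 530 and 506 CPM after 5-FU, 191 and 196 CPM after 3-MB-PP1 and 368 and 398 CPM in vehicle.

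Among 13 epidermal differentiation genes 7 were higher, 1 was lower and 5 were not called (61.5% called, against 53.9% of all genes). FLG, the filaggrin of the skin barrier, had 3.46 and 4.43 CPM after 5-FU, 0.217 and 0.285 CPM after 3-MB-PP1 and 0.472 and 0.308 CPM in vehicle. SBSN was the lower one after 5-FU, at 1.27 and 0.728 CPM, against 2.8 and 3.23 CPM after 3-MB-PP1. The interferon-stimulated genes were mixed, 7 higher, 5 lower and 7 not called (63.2% called, against 53.9% of all genes). The peptide transporter gene TAP1 was 1.63 ± 0.06 higher and OAS3, an antiviral synthetase, stood at -1.49 ± 0.09. Of 22 hypoxia and glycolysis genes 10 were higher, 5 were lower and 7 were not called, led by ADM, the vasodilator adrenomedullin, at 53.2 and 49.5 CPM after 5-FU and 12.9 and 10.6 CPM after 3-MB-PP1. With spike-in scaling FLG and ADM were called, and F3, KRT19, CLDN4, DKK1, SBSN, TAP1 and OAS3 were not, at 1.45, 1.48, 1.30, 1.32, -1.63, 1.53 and -1.55.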
